A study of Mus musculus with 12 samples.

Results

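The sarcomere and Z-disc structural genes are a list of 43 names, given by symbol and chosen with earlier results of these data known. Of these, 38 were found by name among the 13552 genes of the table. They were sorted for this report into 8 thick filament genes, 13 thin filament genes, 14 Z-disc genes and 3 M-band genes. The thick filament class takes in the kinases Mylk3 and Mylk4 and the chaperones Smyd1 and Unc45b, which are not parts of the filament. The Z-disc class takes in Des, Synm, Flnc and Cmya5, genes of intermediate filaments and membrane attachments tied to the Z-disc. RPKM, the unit of the values, is the number of reads on a gene scaled to its exon length and to the reads on all genes. The test took the 37 members that reached 1 RPKM in 3 or more hearts. The remaining gene, Neb (nebulin, the thin filament ruler of skeletal muscle), ranged from 0.183 to 0.896 RPKM over the 12 hearts. The names Myl4, Myl7, Mybphl, Myopn and Murc had no row in the table and are not analysed here under those names. Murc is an older symbol of Cavin4, which has a row and is given at the end, outside the counts.

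The sarcomere is the contractile unit of the cardiomyocyte. Myosin in the thick filaments pulls on actin in the thin filaments, whose response to calcium is set by troponin and tropomyosin. The thin filaments are anchored in the Z-disc by alpha-actinin and its partners, the thick filaments are held together at the M-band, and titin runs between both. Z-disc proteins also bind the intermediate filament desmin and membrane and signalling proteins, and the Z-disc is regarded as a place where mechanical load on the heart is sensed.

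Hearts were taken 9 h after surgery from mice of strain C57BL/6, given in the methods as C57BL/6J, in 4 groups of 3. WT sham and WT TAC hearts came from Wild-type mice, and KI sham and KI TAC hearts from mice homozygous for the S14A allele of Bcl-xL, in which the serine at that position is replaced by alanine. Transverse aortic constriction (TAC) narrows the aorta and raises the load on the left ventricle, and sham mice underwent the operation without constriction. The mice were male and 8 to 10 weeks old at surgery. The allele is a germline point mutation carried by every tissue, on a background crossed back to C57BL/6J, and the Wild-type mice were bought in, so that genotype and source of the mice cannot be told apart. The point mutation is not visible in values per gene. The samples are labelled as heart, with the chambers not named, and the RNA was not separated by cell type, so fewer cells of a type and less RNA per cell cannot be told apart. Each library held 23650191 to 32455166 reads on genes, and the tested member with the fewest reads in any mouse was Tpm2 with 122.

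Among the sham hearts, WT sham mouse 1 and KI sham mouse 2 stood apart in how the members' levels followed exon length. Across the 38 members, which are not independent, the deviation from the group mean was lower for longer genes in these hearts (Spearman's rho -0.605 and -0.771) and higher for longer genes in the other 4 sham hearts (rho 0.237 to 0.666). The same held over all 11236 genes with a length, at rho -0.42 and -0.572 in these hearts and 0.208 to 0.443 in the other 4. Ttn, which has the longest exons of the list, was at 38.5 and 39 RPKM in them and at 74 to 95.1 RPKM in the others, whereas Tcap, which has the shortest, was at 1013 and 1397 RPKM against 314 to 936 RPKM. Results that rest on the sham hearts were therefore also computed without these 2 libraries. They were also computed with the trend over exon length removed from each library. WT sham mouse 1 also had the lowest share of reads on mitochondrial genes, 6.36%, against 9.76% to 12.5% in the other 11 hearts.

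TAC changed a minority of the sarcomere genes. The same 6 genes rose in both genotypes, 4 of them at the Z-disc and 2 of them tropomyosins, and 2 kinases of the myosin light chain fell in both. In WT hearts 7 of 37 tested members were higher after TAC (18.9%, where 6.96% of all 11240 genes tested were higher) and 2 were lower (5.41%, against 4.6%). In KI hearts 6 members were higher (16.2%, against 8.57% of all genes) and 3 were lower (8.11%, against 14.7%). The 6 members higher in both genotypes were Flnc, Synpo2l, Pdlim3, Des, Tpm3 and Tpm4, which are 6 of 7 called in WT and 6 of 6 called in KI hearts, and both members lower in WT, Mylk3 and Mylk4, were among the 3 lower in KI hearts. These calls are at a Benjamini-Hochberg adjusted p of 0.05 over all genes in 1 limma fit to the 12 hearts. The groups did not overlap for 16 members in WT (43.2%, against 35.1% of all genes) and for 11 in KI hearts (29.7%, against 38.3%).

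Over the 37 members the log2 fold change had a median of 0.022 in WT hearts, beside 0.035 over all genes, and of 0.22 in KI hearts, beside -0.10. The KI members' median was 0.347 with median-ratio scaling and 0.138 with quantile normalization. With median-ratio scaling the median over all genes in the KI comparison moved from -0.10 to 0.003, the calls over all genes went from 963 higher and 1657 lower to 1436 higher and 1350 lower, and the members called higher and lower became 9 and 2 in KI and 6 and 3 in WT hearts, where the members' median became -0.008. In WT hearts the calls over all genes, 782 higher and 517 lower, became 750 higher and 719 lower with median-ratio scaling and 751 higher and 809 lower with quantile normalization. The WT count of 7 fell to 4 without WT TAC mouse 7, WT sham mouse 2 or WT sham mouse 3. The WT count of 2 lower members became 5 without KI sham mouse 1, 4 without KI sham mouse 2, and 1 without any of KI sham mouse 3, KI TAC mice 5 and 7, WT TAC mice 7 and 9 and WT sham mice 1, 2 and 3. In KI hearts the counts stayed within 5 to 7 higher and 2 to 4 lower whichever mouse was left out. Without the 2 sham libraries that stood apart, 7 members were called in WT hearts, 6 of them among the 9 called with all mice, and 9 in KI hearts, 7 of them among the 9.

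**Figure D1:**
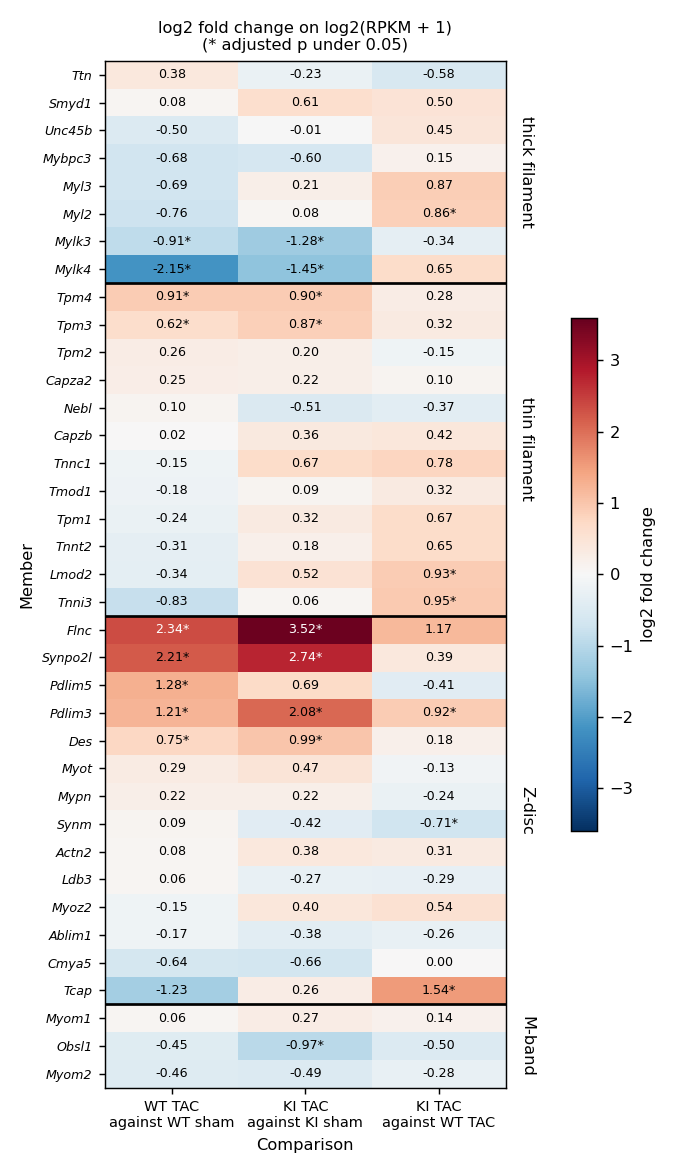
Fold changes of the 37 tested members (rows, grouped as thick filament, thin filament, Z-disc and M-band, and ordered by the change in WT hearts) in 3 comparisons (columns), as log2 differences of RPKM + 1; colour gives the size and direction, and an asterisk marks a limma adjusted p under 0.05. The highest values are those of Flnc (2.34 in WT and 3.52 in KI hearts) and Synpo2l (2.21 and 2.74) at the Z-disc, the lowest that of Mylk4 (-2.15 in WT hearts, -1.45 in KI hearts) at the thick filament.

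In the thick filament class, the kinases of the myosin light chain fell. Of 8 thick filament genes, 2 were lower and none higher after TAC in each genotype, and these were the 2 kinases Mylk3 and Mylk4 both times. Over all genes tested, 4.6% were lower in WT and 14.7% in KI hearts. The class median was a log2 change of -0.68 in WT hearts and -0.12 in KI hearts, the latter 0.011 with median-ratio scaling. Mylk3 (ENSMUSG00000031698, chromosome 8, 85324303 to 85386345, minus strand, GRCm38) is the cardiac myosin light chain kinase, which phosphorylates the regulatory light chain Myl2, and Mylk4 (ENSMUSG00000044951, chromosome 13, 32700834 to 32783954, minus strand) belongs to the same kinase family.

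Mylk4 was at 13.6, 27.2 and 26.9 RPKM in WT sham mice 1, 2 and 3 and at 2.98, 4.08 and 5.53 RPKM in WT TAC mice 7, 9 and 10. It was at 19, 19.7 and 24.4 RPKM in KI sham mice 1, 2 and 3 and at 7.9, 15.9 and 2.4 RPKM in KI TAC mice 5, 6 and 7. Every TAC heart lay below every sham heart of its genotype, with WT sham mouse 1 the lowest of the sham hearts and KI TAC mouse 6 the highest of the TAC hearts. On the log2 scale Mylk4 fell by 2.15 ± 0.44 (SE; limma adjusted p = 0.0075) in WT and by 1.45 ± 0.44 (limma adjusted p = 0.029) in KI hearts. The WT call stood whichever mouse was left out, and the KI call was lost without KI TAC mouse 5 or 7 or any 1 KI sham mouse (limma adjusted p up to 0.0968), and without the 2 sham libraries that stood apart (limma adjusted p = 0.0595), with median-ratio scaling (0.0634) and with quantile normalization (0.0541). The KI log2 fold change was -0.84 when KI TAC mouse 7 was left out and -1.99 when mouse 6 of that group was.

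Mylk3, the more abundant kinase, was at 126, 114 and 152 RPKM in the WT sham mice and at 54.5, 55.7 and 106 RPKM in WT TAC mice 7, 9 and 10. In KI hearts it was at 99.4, 146 and 160.1 RPKM after sham and at 50.3, 68.2 and 46 RPKM after TAC. The groups did not overlap in either genotype, and WT TAC mouse 10 lay nearest to the sham hearts. This gave log2 fold changes of -0.91 ± 0.27 (SE; limma adjusted p = 0.0475) in WT and -1.28 ± 0.27 (SE; limma adjusted p = 0.005) in KI hearts. The KI call stood whichever mouse was left out, while the WT call was lost without any of KI TAC mice 5 and 7, KI sham mice 2 and 3, WT TAC mice 7 and 9 and the 3 WT sham mice (limma adjusted p up to 0.186), and without the 2 sham libraries that stood apart (limma adjusted p = 0.112), with quantile normalization (0.0701) and in the fit of the 2 groups compared (0.0673).

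As a share of the summed RPKM of both kinases, Mylk4 made up 9.77, 19.2 and 15% in the WT sham mice and 5.18, 6.82 and 4.96% in WT TAC mice 7, 9 and 10. In KI hearts its share was 16, 11.9 and 13.2% after sham and 13.6, 18.9 and 4.96% in KI TAC mice 5, 6 and 7. The WT groups did not overlap and the KI groups did. The exact two-sided permutation test gave p = 0.1 in WT hearts, the smallest that 3 against 3 can give, and p = 0.9 in KI hearts.

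The other 6 thick filament genes did not pass the test after TAC in either genotype. They were led in level by Myl2, the ventricular regulatory light chain, which averaged 2213 ± 358 RPKM (SD, n = 3) after sham and 1303 ± 133 after TAC in WT hearts, and 2321 ± 788 and 2361 ± 263 RPKM in KI hearts. The log2 fold changes of Myl2, of the essential light chain Myl3 and of Mybpc3, cardiac myosin-binding protein C, were -0.76, -0.69 and -0.68 in WT hearts and 0.08, 0.21 and -0.60 in KI hearts. Those of Ttn were 0.38 and -0.23. The myosin chaperone Unc45b and Smyd1, a muscle methyltransferase that acts in thick filament assembly, had log2 fold changes of -0.50 and 0.08 in WT and -0.01 and 0.61 in KI hearts, where Smyd1 just missed the threshold (limma adjusted p = 0.0544) with TAC hearts above all sham hearts. Smyd1 was called higher in KI hearts with limma-voom on recovered reads (adjusted p = 0.0486), with median-ratio scaling (0.0182) and with the length trend removed (0.0383). Mybpc3 was called lower in KI hearts with quantile normalization (limma adjusted p = 0.0191). In WT hearts Myl3 was called lower with quantile normalization (0.0264) and Myl2 with the length trend removed (0.0486).

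In the thin filament, the minor tropomyosins Tpm3 and Tpm4 rose in both genotypes, where 6.96% of all genes were higher in WT and 8.57% in KI hearts. The other 10 tested members, troponins and caps included, did not pass the test in the fit to the 12 hearts. Of these, 3 did in other settings, given beside their values. The class had a median of -0.07 (log2) in WT (0.036 with quantile normalization) and one of 0.27 in KI hearts. Tpm1, the main tropomyosin of heart muscle, averaged 532 ± 143 RPKM (SD, n = 3) after sham and 443 ± 66.6 RPKM after TAC in WT hearts, and 585 ± 214 and 713 ± 156 RPKM in KI hearts. It had the highest mean of the class in both TAC groups and Tnni3 in both sham groups, and its log2 fold changes were -0.24 in WT and 0.32 in KI hearts. Tpm3 and Tpm4 also encode the tropomyosins of the cytoskeleton in muscle and non-muscle cells.

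Tpm4 (ENSMUSG00000031799, chromosome 8, 72134975 to 72153142, plus strand) was at 12.8, 11.6 and 11.3 RPKM in WT sham mice 1, 2 and 3 and at 28, 15.2 and 29.6 RPKM in WT TAC mice 7, 9 and 10. After sham in KI hearts it was at 17, 14.5 and 13.1 RPKM, and in KI TAC mice 5, 6 and 7 at 38.8, 26.3 and 22.5 RPKM. The TAC hearts lay above the sham hearts of their genotype in every case, and WT TAC mouse 9 was the lowest of them. Tpm4 rose by a log2 fold change of 0.91 ± 0.25 (SE; limma adjusted p = 0.0301) in WT and 0.90 ± 0.25 (SE; limma adjusted p = 0.0196) in KI hearts. The call was lost in WT without WT TAC mouse 7 or 10 or any 1 WT sham mouse (limma adjusted p up to 0.13), and in KI without KI TAC mouse 5, KI sham mouse 2 or KI sham mouse 3 (up to 0.0814). Without the 2 sham libraries that stood apart it was lost in both genotypes (limma adjusted p = 0.0814 in WT and 0.0604 in KI hearts).

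Tpm3 (ENSMUSG00000027940, chromosome 3, 90072649 to 90100902, plus strand) was at 3.69, 2.97 and 3.33 RPKM in the WT sham hearts and at 5.97, 5.05 and 6.01 RPKM in WT TAC mice 7, 9 and 10. In KI hearts it was at 3.3, 3.89 and 3.49 RPKM after sham and 7.52, 6.72 and 7.81 RPKM after TAC. The spread within groups was small and no group overlapped its sham group. Its log2 fold change was 0.62 ± 0.14 (SE; limma adjusted p = 0.0129) in WT, lost without WT TAC mouse 7, WT sham mouse 2 or WT sham mouse 3 (limma adjusted p up to 0.0677), and 0.87 ± 0.14 (SE; limma adjusted p = 0.00096) in KI hearts, where the call stood whichever mouse was left out. Tpm3 has processed copies elsewhere in the mouse genome, and how reads shared with them were treated is not given in the sources used here.

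Tpm2, Tpm3 and Tpm4 together made up 2.7, 3.78 and 3.48% of the summed RPKM of the 4 tropomyosins in WT sham mice 1, 2 and 3 and 8.48, 5.2 and 7.15% in WT TAC mice 7, 9 and 10. The KI sham hearts had 5.13, 2.51 and 3.47% and the KI TAC hearts 8.34, 4.44 and 3.86%. The share was higher in all WT TAC hearts than in any WT sham heart, whereas the KI groups overlapped. The exact two-sided permutation test gave p = 0.1 in WT hearts, the smallest possible with 3 against 3, and p = 0.4 in KI hearts.

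Cardiac troponin I (Tnni3), which holds the thin filament switched off at low calcium, had the lowest log2 fold change of the class in WT hearts, -0.83 ± 0.27 (SE; limma adjusted p = 0.0579), and one of 0.06 in KI hearts. It was called lower in WT hearts with median-ratio scaling (limma adjusted p = 0.0463), quantile normalization (0.0497), scaling to reads on nuclear genes (0.0496) and the length trend removed (0.038). Troponin T (Tnnt2) and troponin C (Tnnc1), the calcium sensor, had -0.31 and -0.15 in WT and 0.18 and 0.67 in KI hearts. Tnnc1 was called higher in KI hearts without the 2 sham libraries that stood apart (limma adjusted p = 0.0243). The pointed-end proteins Tmod1, which caps actin, and Lmod2, which lengthens thin filaments, had -0.18 and -0.34 in WT and 0.09 and 0.52 in KI hearts. Capza2 and Capzb, subunits of the protein that caps actin at the Z-disc, lay between 0.02 and 0.36 in both genotypes. Capzb was called higher in KI hearts with median-ratio scaling (limma adjusted p = 0.0401). Nebl, nebulette, had the lowest value of the class in KI hearts at -0.51 and was at 0.10 in WT hearts.

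The Z-disc class held most of the rise. Of its 14 members, 5 were higher and none lower after TAC in WT hearts (Flnc, Synpo2l, Pdlim5, Pdlim3 and Des), where 6.96% of all genes were higher. In KI hearts 4 were higher and none lower (the same genes without Pdlim5), where 8.57% of all genes were higher. Pdlim5 was called higher there in 3 other settings of the processing and in the fit without KI TAC mouse 5. Cmya5 was called lower in both genotypes in 2 settings added after the data were seen, given beside its values. The median of the class on the log2 scale was 0.15 in WT hearts and 0.39 in KI hearts. Flnc (ENSMUSG00000068699, chromosome 6, 29433256 to 29461883, plus strand) encodes filamin C, an actin crosslinker of the Z-disc and the cell membrane that gathers at damaged sarcomeres. Synpo2l (ENSMUSG00000039376, chromosome 14, 20658946 to 20668354, minus strand) encodes an actin-binding Z-disc protein, and Pdlim3 (ENSMUSG00000031636, chromosome 8, 45885461 to 45919548, plus strand) the actinin-associated LIM protein, which binds alpha-actinin.

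Flnc was at 151, 132 and 160.2 RPKM in WT sham mice 1, 2 and 3 and at 916, 1196 and 388 RPKM in WT TAC mice 7, 9 and 10. It was at 176, 113 and 158 RPKM in the KI sham hearts and at 4122, 1381 and 848 RPKM in KI TAC mice 5, 6 and 7. The 6 sham hearts lay close together, every TAC heart lay above them, and KI TAC mouse 5 stood far above the other TAC hearts. The log2 fold change was 2.34 ± 0.49 (SE; limma adjusted p = 0.0083) in WT hearts, or 5.07-fold, and 3.52 ± 0.49 (SE; limma adjusted p = 0.00033) in KI hearts, or 11.5-fold. Without KI TAC mouse 5 the KI value was the lowest of those with 1 mouse left out, 2.88, and the call stood.

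Synpo2l was at 91.7, 82.5 and 96.8 RPKM in the WT sham hearts and at 593, 752 and 168 RPKM in WT TAC mice 7, 9 and 10. In KI hearts it was at 79.5, 72.9 and 93.6 RPKM after sham and at 721, 557 and 418 RPKM in KI TAC mice 5, 6 and 7. Every TAC heart was above every sham heart, and WT TAC mouse 10 lay nearest to them. In log2 terms Synpo2l rose by 2.21 ± 0.42 (SE; limma adjusted p = 0.0047) in WT and 2.74 ± 0.42 (SE; limma adjusted p = 0.00061) in KI hearts, which is 4.64-fold and 6.69-fold. Without WT TAC mouse 10 the WT value was 2.88, or 7.34-fold, and the call stood whichever mouse was left out.

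Pdlim3, expressed at a low level, was at 2.33, 4.09 and 2.92 RPKM in WT sham mice and at 7.81, 12.1 and 6.12 RPKM in WT TAC mice 7, 9 and 10. It was at 3.2, 3.47 and 2.98 RPKM in KI sham hearts and at 11.6, 17.4 and 23.2 RPKM in KI TAC mice 5, 6 and 7. All TAC hearts exceeded all sham hearts. Pdlim3 rose by 1.21 ± 0.26 (SE; limma adjusted p = 0.00958) on the log2 scale in WT and by 2.08 ± 0.26 (SE; limma adjusted p = 0.00018) in KI hearts. Without the 2 sham libraries that stood apart the WT value was 1.07 (limma adjusted p = 0.0581).

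Pdlim5 (ENSMUSG00000028273, chromosome 3, 142239590 to 142395696, minus strand), which encodes a related LIM protein of the Z-disc that binds protein kinase C, was at 34.1, 42.2 and 38 RPKM in WT sham mice 1, 2 and 3 and at 82.8, 93.4 and 106 RPKM in WT TAC mice 7, 9 and 10. Its values in KI hearts were 48.9, 41.9 and 39 RPKM after sham and 45.9, 77.8 and 96.8 RPKM after TAC. The WT groups were far apart, while KI TAC mouse 5 lay within the range of the KI sham hearts. The log2 fold change was 1.28 ± 0.24 (SE; limma adjusted p = 0.0048) in WT and 0.69 ± 0.24 (SE; limma adjusted p = 0.0528) in KI hearts. The KI difference was called with limma-voom on recovered reads (adjusted p = 0.0486), with median-ratio scaling (limma adjusted p = 0.0134) and with the length trend removed (0.0379). Without KI TAC mouse 5 it was called at a log2 fold change of 0.99 (limma adjusted p = 0.006). The interaction of genotype and surgery for this gene did not pass the test, at -0.59 ± 0.34 (SE) with a limma adjusted p of 0.424. It was -0.29 without KI TAC mouse 5.

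Des (ENSMUSG00000026208, chromosome 1, 75360329 to 75368579, plus strand) encodes desmin, the intermediate filament that links neighbouring Z-discs. It was at 962, 644 and 632 RPKM in WT sham hearts and at 1318, 1149 and 1243 RPKM in WT TAC mice 7, 9 and 10. In KI hearts it was at 581, 884 and 679 RPKM after sham and 1638, 1200.2 and 1404 RPKM after TAC. No TAC heart overlapped the sham hearts of its genotype, and among the sham hearts WT sham mouse 1 and KI sham mouse 2 were highest. Desmin RNA rose by 0.75 ± 0.23 (SE; limma adjusted p = 0.0492) on the log2 scale in WT, a call lost without any of KI TAC mice 6 and 7, KI sham mouse 3, the 3 WT TAC mice and WT sham mice 2 and 3 (limma adjusted p up to 0.163), and 0.99 ± 0.23 (SE; limma adjusted p = 0.0076) in KI hearts, where it stood whichever mouse was left out. The WT call was also lost in the fit of the 2 groups compared (limma adjusted p = 0.0689), with median-ratio scaling (0.055), with no filter on low values (0.0619) and with a pseudocount of 0.1 (0.0503).

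The other 9 Z-disc genes did not pass the test after TAC in either genotype in the fit to the 12 hearts. Actn2, alpha-actinin 2, which crosslinks the thin filaments in the Z-disc, averaged 598 ± 114 RPKM (SD, n = 3) after sham and 626 ± 62.4 RPKM after TAC in WT hearts, a log2 fold change of 0.08, and 597 ± 60.8 and 789.9 ± 181 RPKM in KI hearts (0.38). Tcap, telethonin, which joins the ends of titin in the Z-disc, had the lowest log2 fold change of the class in WT hearts, -1.23 ± 0.42 (SE; limma adjusted p = 0.0738), with the WT TAC hearts below all WT sham hearts, and one of 0.26 in KI hearts. In the fit of the 2 groups compared Tcap was called lower in WT hearts (limma adjusted p = 0.0178). Its KI value turned to -0.36 without KI sham mouse 1 and was 0.71 without KI sham mouse 2. Cmya5, myospryn, which binds desmin, had -0.64 in WT and -0.66 in KI hearts, the lowest of the class in the latter. Without the 2 sham libraries that stood apart its log2 fold changes were -0.88 (limma adjusted p = 0.0388) in WT and -0.86 (0.0229) in KI hearts. With the length trend removed they were -0.76 (0.029) and -0.64 (0.0365). Ldb3, Myoz2, Myot, Mypn, Synm and Ablim1 lay between -0.17 and 0.29 in WT and between -0.42 and 0.47 in KI hearts.

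**Figure D2:**
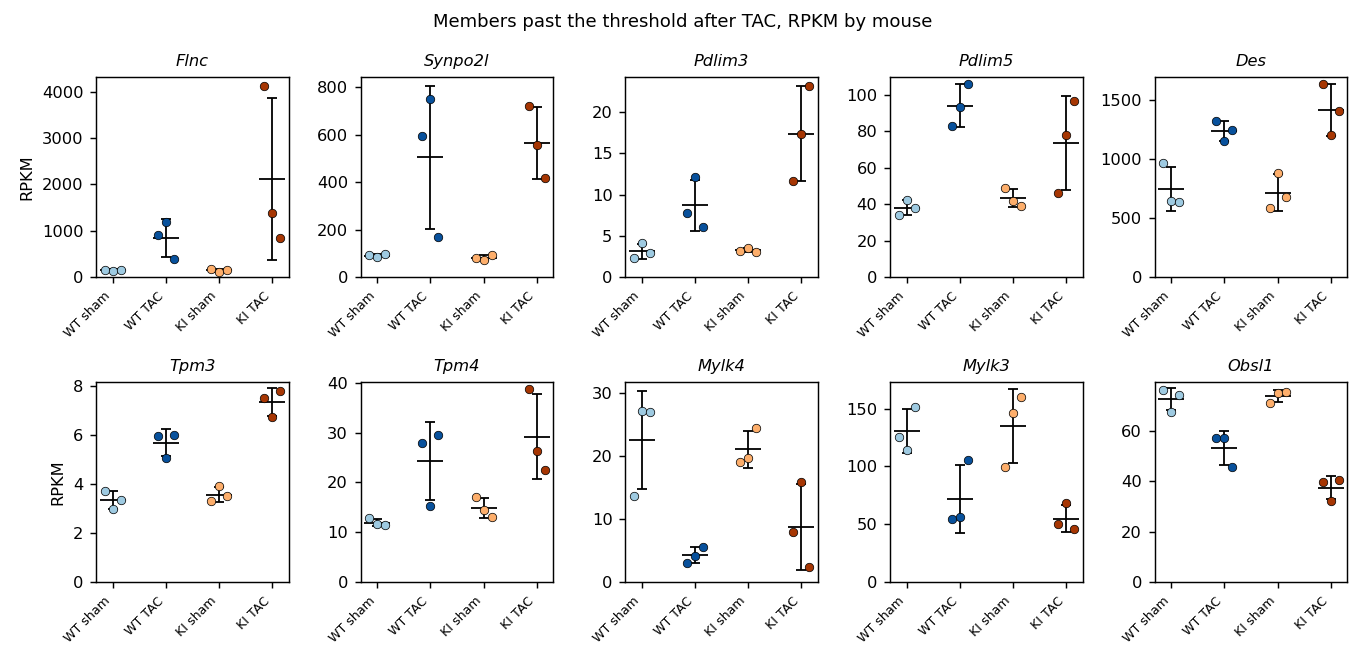
RPKM (linear axes from 0) of the 10 members past the threshold after TAC in either genotype, 1 panel per gene, with 1 point per mouse and 1 colour per group; horizontal bars are group means and whiskers are SD (n = 3). The TAC points of Flnc, Synpo2l, Pdlim3, Des, Tpm3 and Tpm4 lie above the sham points of their genotype and those of Mylk3, Mylk4 and Obsl1 below, and KI TAC mouse 5 is the point at 4122 RPKM for Flnc.

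Upstream sequence is shown for the 5 members with matches among the 8 that moved the same way in both genotypes. RefSeq windows on GRCm38.p6 matched 34 of the 38 members with 49 start sites, and 250 bases before each start were searched on both strands for 6 motifs known from muscle or stress promoters. M-CAT (CATTCC), the TEAD site of muscle promoters, was found before 11 of the members' 49 starts (22.4%; 12.6% of all 32851 starts), the MEF2 site before 6 (12.2%; 2.92%) and the CArG box, bound by serum response factor, before 5 (10.2%; 1.47%). The AP-1 motif (TGANTCA) and CACGTG were each found before 3 (6.12%; 6.75% and 6.02%), and the heat shock element (GAANNTTC) before none (0%; 6.69%). These are descriptions of letters, and several starts can belong to 1 gene. Each stretch runs from 250 bases before the start to the end of the last match, 5′ to 3′ on the strand of the gene, with the matches in capitals. In the Pdlim3 stretch the last 21 bases, which hold its second match, lie in an exon of GENCODE, whose gene starts before the RefSeq start used here. The first 3 genes hold M-CAT on either strand and the last 2 the MEF2 site.
Flnc chr6:29433006-29433157 (plus strand): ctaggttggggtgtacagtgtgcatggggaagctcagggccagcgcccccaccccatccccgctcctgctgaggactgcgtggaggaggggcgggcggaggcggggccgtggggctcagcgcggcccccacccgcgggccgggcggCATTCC
Pdlim3 chr8:45885237-45885481 (plus strand): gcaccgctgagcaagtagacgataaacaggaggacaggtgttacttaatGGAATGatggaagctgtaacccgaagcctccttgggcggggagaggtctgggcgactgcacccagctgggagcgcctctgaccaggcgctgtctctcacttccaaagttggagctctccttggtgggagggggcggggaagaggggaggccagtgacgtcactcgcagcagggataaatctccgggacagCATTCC
Mylk3 chr8:85365467-85365574 (minus strand): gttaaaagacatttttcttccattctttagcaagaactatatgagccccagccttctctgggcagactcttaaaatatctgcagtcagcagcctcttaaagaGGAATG
Synpo2l chr14:20664709-20664824 (minus strand): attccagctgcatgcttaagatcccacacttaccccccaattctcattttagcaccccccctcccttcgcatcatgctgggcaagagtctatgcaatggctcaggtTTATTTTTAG
Synpo2l chr14:20668454-20668604 (minus strand): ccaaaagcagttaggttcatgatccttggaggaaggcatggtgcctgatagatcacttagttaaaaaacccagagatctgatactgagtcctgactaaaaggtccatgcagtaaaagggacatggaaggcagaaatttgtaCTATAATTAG
Mylk4 chr13:32784058-32784214 (minus strand): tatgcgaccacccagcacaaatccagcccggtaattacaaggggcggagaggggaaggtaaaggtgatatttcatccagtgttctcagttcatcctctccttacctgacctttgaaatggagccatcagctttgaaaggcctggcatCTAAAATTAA

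Flnc and Pdlim3, which rose, and Mylk3, which fell, share M-CAT in these windows, and Synpo2l, which rose, and Mylk4, which fell, share the MEF2 site. The same motifs thus stood before members that moved in opposite directions. Among the 9 starts of the 6 genes higher in both genotypes, 2 held M-CAT (22.2%) and 2 a MEF2 site (22.2%).

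At the M-band, 1 of 3 members passed the test after TAC, and in KI hearts, where 14.7% of all genes were lower. Obsl1 (ENSMUSG00000026211, chromosome 1, 75479310 to 75506452, minus strand), obscurin-like 1, which binds titin and myomesin, was at 76.3, 67.8 and 74.5 RPKM in WT sham mice 1, 2 and 3 and at 57.2, 57.2 and 45.7 RPKM in WT TAC mice 7, 9 and 10. It was at 71.2, 75 and 75.8 RPKM in KI sham hearts and at 39.8, 32.1 and 40.4 RPKM in KI TAC mice 5, 6 and 7. The TAC hearts lay below the sham hearts in both genotypes. The log2 fold change was -0.97 ± 0.17 (SE; limma adjusted p = 0.0015) in KI hearts, a call that stood whichever mouse was left out, and -0.45 ± 0.17 (SE; limma adjusted p = 0.106) in WT hearts; the interaction for this gene did not pass the test (-0.52 ± 0.24 (SE; limma adjusted p = 0.332)). The myomesins, which crosslink thick filaments, did not pass it either. Myom2, the most abundant of the class in sham hearts, averaged 186 ± 53.9 RPKM (SD, n = 3) after sham and 133 ± 25.1 RPKM after TAC in WT hearts, and Myom1 116 ± 10.3 and 122 ± 17.4 RPKM. Their log2 fold changes were -0.46 and 0.06 in WT and -0.49 and 0.27 in KI hearts.

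The 38 members took 4.77, 4.11 and 4.79% of the reads on genes in WT sham mice 1, 2 and 3 and 4.77, 5.37 and 4.94% in WT TAC mice 7, 9 and 10. They took 4.25, 4.95 and 4.82% in KI sham mice and 8.26, 6.78 and 5.56% in KI TAC mice 5, 6 and 7. The KI TAC hearts were above every other heart and the WT groups overlapped. The difference between TAC and sham was 2.19 percentage points in KI hearts (exact two-sided permutation p = 0.1, the smallest possible with 3 against 3) and 0.469 in WT hearts (p = 0.3 by the same exact test). Flnc alone took 3.88, 1.3 and 0.799% of the reads in KI TAC mice and 0.863, 1.13 and 0.365% in WT TAC mice, against 0.106% to 0.165% in sham hearts. With Flnc left out of the sum, a choice made after the values were seen, the differences were 0.338 percentage points in KI and -0.177 in WT hearts. Leaving out 1 mouse moved the KI difference between 0.0332 (KI TAC mouse 6 left out) and 0.586 (mouse 5 left out). The WT difference moved between -0.394 (WT sham mouse 2 left out) and -0.00912 (WT TAC mouse 7 left out).

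By class, the mean share of the Z-disc genes was 1.2% in WT sham and 2.21% in WT TAC hearts, and 1.2% and 3.6% in KI sham and KI TAC hearts. The KI TAC mean held 1.99% from Flnc alone, and the Z-disc shares of KI TAC mice 5, 6 and 7 were 5.43, 2.94 and 2.45%. The KI difference of 2.4 percentage points was 1.49 without KI TAC mouse 5. The thick filament genes went from 2.17% to 1.85% in WT and from 2.24% to 1.9% in KI hearts. The thin filament genes went from 0.836% to 0.673% and from 0.92% to 1.09%. These class shares are given without a test.

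**Figure D3:**
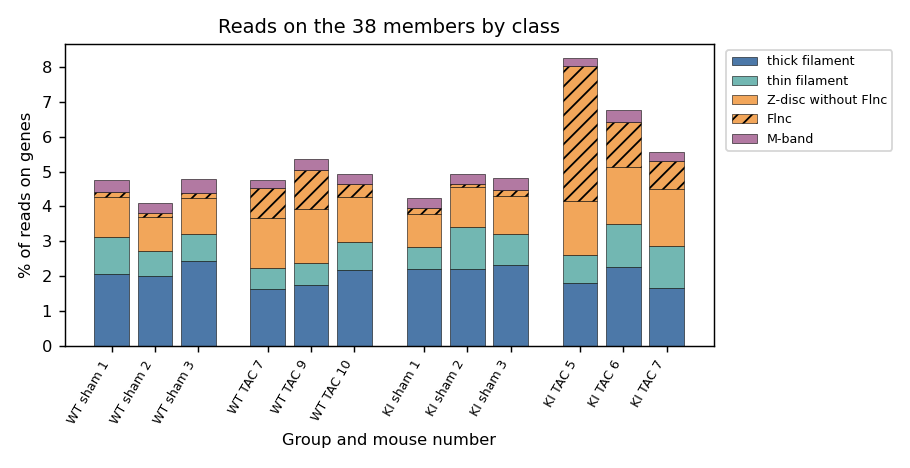
Share of all reads on genes (percent, bars from 0) taken by the 38 members in each of the 12 hearts, stacked by class, with Flnc hatched apart from the other Z-disc genes. The tallest bar is KI TAC mouse 5 at 8.26%, of which Flnc is 3.88%, and the other hearts lie between 4.11% and 6.78%.

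Between the TAC groups, few members passed the test. With WT TAC hearts as the reference, 5 of 37 tested members were higher in KI TAC hearts (13.5%, where 2.92% of all genes were higher) and 1 was lower (2.7%, against 8.13%). The higher members were Tcap and Pdlim3 at the Z-disc, Tnni3 and Lmod2 in the thin filament and Myl2 in the thick filament, and the lower member was Synm. The groups did not overlap for 12 members (32.4%, against 29.5% of all genes). The median log2 difference was 0.31 over the members and -0.12 over all genes, with 0.47 in the thick filament, 0.37 in the thin filament, 0.09 at the Z-disc, where it was -0.085 with quantile normalization, and -0.28 at the M-band. The class extremes were Ttn (-0.58) and Myl3 (0.87), Nebl (-0.37) and Tnni3 (0.95), Synm (-0.71) and Tcap (1.54), and Obsl1 (-0.50) and Myom1 (0.14). The comparison shares its hearts with both comparisons of TAC and sham, and of these members only Pdlim3 passed the test in either of them.

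Tcap (ENSMUSG00000007877, chromosome 11, 98383811 to 98384953, plus strand) was at 324, 301 and 289 RPKM in WT TAC mice 7, 9 and 10 and at 671, 1081 and 966 RPKM in KI TAC mice 5, 6 and 7. Every KI TAC heart was above every WT TAC heart, whose 3 values were close together, while the sham hearts spread over both (1013, 582 and 623 RPKM in WT sham and 314, 1397 and 936 RPKM in KI sham mice 1, 2 and 3). The log2 difference was 1.54 ± 0.42 (SE; limma adjusted p = 0.0342), or 2.91-fold. The call was lost without KI TAC mouse 6 or 7 or any 1 WT TAC mouse (limma adjusted p up to 0.131).

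Tnni3 (ENSMUSG00000035458, chromosome 7, 4518305 to 4524229, minus strand) was at 307, 335 and 286 RPKM in WT TAC mice 7, 9 and 10 and at 538, 662 and 592 RPKM in KI TAC mice 5, 6 and 7. Its sham values were 770.0, 472 and 460.1 RPKM in WT and 395, 799 and 590.3 RPKM in KI mice, so that the KI TAC hearts lay within the range of the sham hearts and the WT TAC hearts below it. The log2 difference between the TAC groups was 0.95 ± 0.27 (SE; limma adjusted p = 0.0384). It was no longer called without any of KI TAC mice 5, 6 and 7, KI sham mouse 3, WT TAC mice 7 and 10 and WT sham mouse 2 (limma adjusted p up to 0.138).

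Myl2 (ENSMUSG00000013936, chromosome 5, 122100951 to 122113472, plus strand) was at 1385, 1374 and 1150.2 RPKM in WT TAC mice 7, 9 and 10 and at 2181, 2662 and 2239 RPKM in KI TAC mice 5, 6 and 7. The KI TAC hearts were all higher, and the sham hearts, at 2598, 1889.7 and 2151 RPKM in WT and 1531, 3107 and 2326 RPKM in KI mice, were above the WT TAC hearts as well. The log2 difference was 0.86 ± 0.25 (SE; limma adjusted p = 0.0447), a call lost without any of the 6 TAC mice, KI sham mouse 3, WT sham mouse 2 or WT sham mouse 3 (limma adjusted p up to 0.159). Myl3, the partner light chain, was at 691, 727 and 627 RPKM in WT TAC and 1055, 1453 and 1270.1 RPKM in KI TAC hearts, also without overlap, with a log2 difference of 0.87 ± 0.28 (SE; limma adjusted p = 0.0566). It was called with limma-voom on recovered reads (adjusted p = 0.0484), median-ratio scaling (limma adjusted p = 0.0321), scaling to reads on nuclear genes (0.0497) and without the 2 sham libraries that stood apart (0.0182). With quantile normalization the difference was 0.32 (limma adjusted p = 0.216).

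Synm (ENSMUSG00000030554, chromosome 7, 67730160 to 67759742, minus strand), which encodes the intermediate filament protein synemin, was at 3.79, 2.66 and 3.13 RPKM in WT TAC mice 7, 9 and 10 and at 1.31, 1.04 and 2.49 RPKM in KI TAC mice 5, 6 and 7. The KI TAC hearts were lower, with KI TAC mouse 7 close to WT TAC mouse 9. The log2 difference was -0.71 ± 0.20 (SE; limma adjusted p = 0.0367), lost without KI TAC mouse 5 or 6, KI sham mouse 3, WT TAC mouse 7 or WT TAC mouse 10 (limma adjusted p up to 0.161). Lmod2 (129, 149.9 and 228 RPKM in WT TAC and 324, 418 and 225 RPKM in KI TAC mice) and Pdlim3 were called higher with groups that overlapped, at log2 differences of 0.93 ± 0.27 (SE; limma adjusted p = 0.0433) and 0.92 ± 0.26 (SE; limma adjusted p = 0.0384). The Lmod2 call was lost without any of KI TAC mice 5 and 6, KI sham mouse 3, WT TAC mice 7 and 9 and WT sham mice 2 and 3 (limma adjusted p up to 0.183), and the Pdlim3 call without any of KI TAC mice 6 and 7, KI sham mouse 3, WT TAC mice 7 and 10 and WT sham mouse 3 (up to 0.137). Flnc, which did not pass the test and had overlapping groups, showed a log2 difference of 1.17 ± 0.49 (SE; limma adjusted p = 0.127). It was 0.53 (limma adjusted p = 0.412) without KI TAC mouse 5, 0.69 (0.384) without WT TAC mouse 10, and 1.67 (0.0359), past the threshold, without KI TAC mouse 7.

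**Figure D4:**
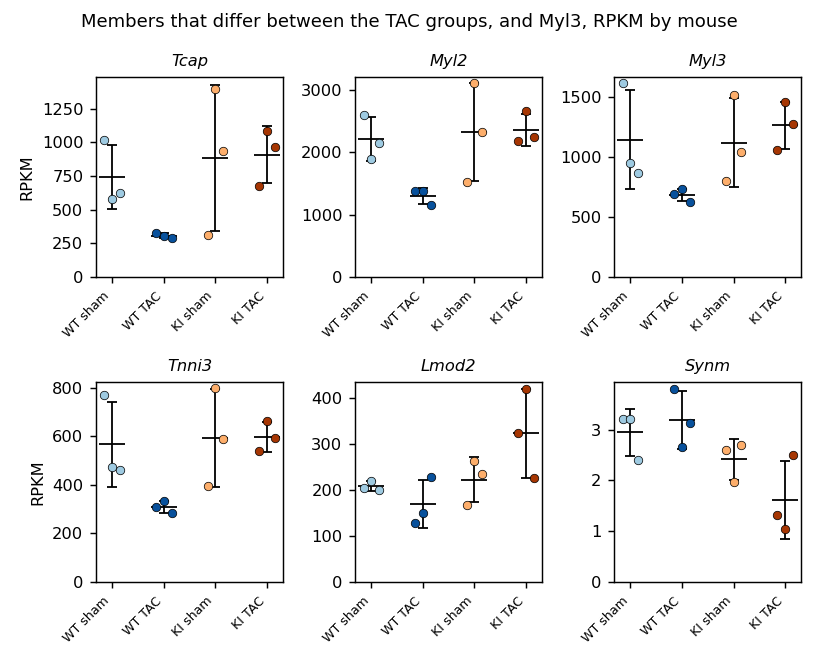
RPKM (linear axes from 0) of the 6 members Tcap, Myl2, Myl3, Tnni3, Lmod2 and Synm in the 4 groups, with 1 point per mouse, group means as horizontal bars and SD as whiskers (n = 3). The WT TAC points of Tcap lie between 289 and 324 RPKM, below the KI TAC points at 671 to 1081 RPKM, and the sham points of Tcap, Myl2 and Myl3 are spread widely.

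These counts rested on few libraries. Without KI TAC mouse 6 or WT TAC mouse 7, 0 members were called between the TAC groups. The higher members numbered 1 without WT TAC mouse 10 or KI sham mouse 3 and 2 without KI TAC mouse 5, WT sham mouse 2 or WT sham mouse 3. They numbered 3 without KI TAC mouse 7 or WT TAC mouse 9, and with the lower member 2 of the 4 called without the former and 3 of the 4 called without the latter were among the 6 called with all mice. The 1 lower member was lost without KI TAC mouse 5 or 6, KI sham mouse 3, or WT TAC mouse 7 or 10, which left 0. With quantile normalization 2 members were higher and 0 lower, of which Pdlim3 was the 1 shared with the 6. The second was Tpm3, while Tcap (limma adjusted p = 0.0755), Tnni3 (0.0615), Myl2 (0.111), Lmod2 (0.118) and Synm (0.0596) lost the call. When the model held only the hearts compared, Lmod2, Pdlim3 and Synm lost it, and without a filter on low values Myl2 did. With median-ratio scaling 8 were higher and 1 lower. Over all genes the calls were 328 higher and 914 lower, 523 higher and 613 lower with quantile normalization and 643 higher and 604 lower with median-ratio scaling, which moved the median of all genes from -0.12 to -0.0007.

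The log2 differences between the TAC groups followed exon length. Across the 37 tested members, which are not independent, Spearman's rho with exon length was -0.553 for KI TAC against WT TAC, beside -0.263 over all genes with a length, and 0.238 and -0.321 for TAC against sham in WT and KI hearts, beside 0.191 and -0.065 over all genes. With the trend over exon length removed from each library, a step added after the data were seen, Tcap, Tnni3, Myl2 and Pdlim3 were called higher in KI TAC hearts and none lower. Spearman's coefficient for this comparison was then -0.394 over the members and 0.00838 over all genes.

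**Figure D5:**
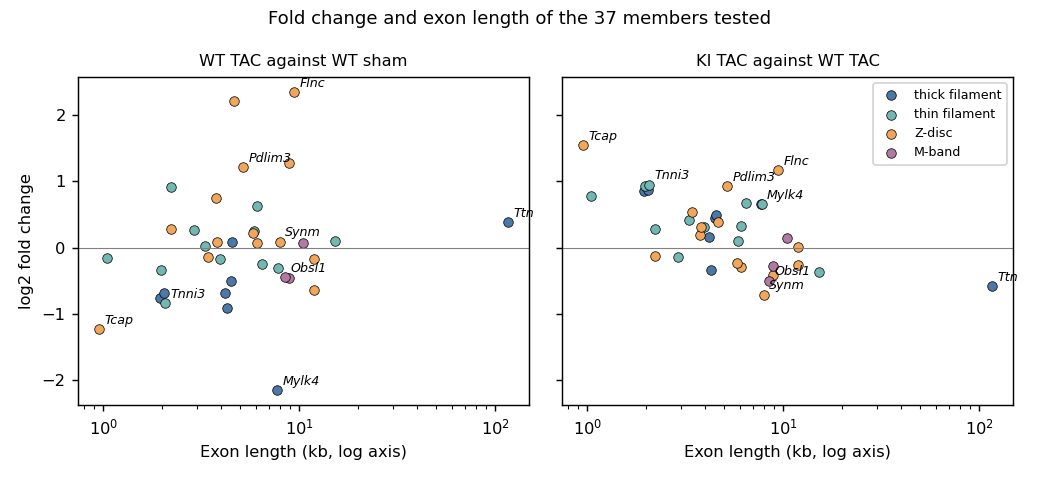
Log2 fold change of the 37 tested members (vertical axis) against exon length in kilobases (horizontal log axis), for WT TAC against WT sham on the left and KI TAC against WT TAC on the right, coloured by class. On the right the points fall from Tcap at 1.54 on the short side to Ttn at -0.58 on the long side (Spearman's rho -0.553), and on the left no such fall is seen (rho 0.238).

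In sham hearts no member passed the test between the genotypes. Of the 37 members 0 were called in KI sham against WT sham, where 0.0178% of all genes were, none had an unadjusted limma p under 0.05, and limma-voom on recovered reads also called 0. Their log2 differences ranged from -0.32 for Myot to 0.29 for Tpm4, with a median of 0.024. The interaction of genotype and surgery, which asks whether the response to TAC differed between the genotypes, called none of the members, as it called 0% of all genes, and limma-voom called 0 of them. Before adjustment 7 members had a limma p under 0.05 (18.9%, beside 14.8% of all genes). They were Tcap, Tnni3, Myl3, Pdlim3, Lmod2 and Myl2 with a more positive response in KI hearts (log2 1.49, 0.89, 0.90, 0.86, 0.85 and 0.83) and Obsl1 with a more negative one (-0.52), and the smallest limma adjusted p among them was 0.273, that of Tcap. Single sham hearts moved these sizes. Without KI sham mouse 1 they were 0.87 for Tcap, 0.63 for Tnni3 and 0.56 for Myl2. Tcap was at 1.94 without KI sham mouse 2, and Myl3 at 0.62 without WT sham mouse 1.

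Other genes of the sarcomere, from a list of 48 of which 42 were tested, were called as well. In WT hearts 13 of the 42 were higher and 3 lower after TAC, where 6.96% and 4.6% of all genes were, led by the LIM protein Fhl1, 3.28 (limma adjusted p = 5e-05), and Xirp2, an actin-binding protein of the intercalated disc and Z-disc, 3.21 (limma adjusted p = 0.0014), with Myh7b, a myosin heavy chain, -1.88 (limma adjusted p = 0.0026), and the pointed-end cap Tmod4, -1.05 (limma adjusted p = 0.019), falling the most. In KI hearts 12 were higher and 6 lower, beside 8.57% and 14.7% of all genes, led by the kelch protein gene Klhl41, 3.54 (limma adjusted p = 6.5e-05), and Fhl1, 3.25 (limma adjusted p = 1.4e-05), and by Myh7b, -1.75 (limma adjusted p = 0.0018), and Lmod3, -1.44 (limma adjusted p = 0.011), among those that fell. Between the TAC groups, where 2.92% of all genes were higher in KI hearts and 8.13% lower, 2 were higher, Klhl41, 2.03 (limma adjusted p = 0.008), and the slow skeletal troponin T gene Tnnt1, 0.74 (limma adjusted p = 0.024), and 2 were lower, the muscle kinase gene Speg, -1.11 (limma adjusted p = 0.036), and the Z-disc adaptor gene Sorbs2, -0.79 (limma adjusted p = 0.037). None was called between the sham groups or in the interaction. Cavin4, a muscle protein of the caveolae that was listed as Murc, had log2 fold changes of 0.29 ± 0.23 (SE; limma adjusted p = 0.42) in WT and 0.84 ± 0.23 (SE; limma adjusted p = 0.0167) in KI hearts.

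Markers of the tissue moved with the groups. Those of cardiomyocytes were present in all hearts. The cardiomyocyte list (10 of 10 genes found, none a member) summed to 12586 to 16663 RPKM after sham and 7136 to 8634 RPKM after TAC in WT hearts, and to 11146 to 15184 and 10750.2 to 14018 RPKM in KI hearts, so the summed level of the WT TAC hearts was below all others. The genes of the list did not move together. In WT hearts Myh6 (log2 fold change -1.15, limma adjusted p = 0.013), Ckm (log2 fold change -1.05, limma adjusted p = 0.013), Mb (log2 fold change -0.88, limma adjusted p = 0.038) and Atp2a2 (log2 fold change -0.83, limma adjusted p = 0.014) fell after TAC. The exchanger gene Slc8a1 rose (log2 fold change 1.13, limma adjusted p = 0.0098). Casq2 and Ryr2, of the calcium store, had log2 fold changes of 0.22 and -0.09. In KI hearts only Pln of the 10 passed the test (log2 fold change -0.93, limma adjusted p = 0.028). The fibroblast list (7 of 7) summed to 122 to 197, 147 to 760.4, 148 to 256 and 101 to 183 RPKM in the same order of groups, and the leukocyte list (6 of 6) to 22.2 to 27.9, 40.9 to 58.3, 22.9 to 27.8 and 28.8 to 42.1 RPKM, with S100a8 at 0 in WT sham mouse 3 and S100a9 at 0 in KI sham mouse 2. The atrial list (4 of 6, with Sln and Bmp10 not in the table) summed to 42.2 to 77.6, 213 to 772, 46.2 to 78.5 and 60.9 to 199 RPKM, most of it Nppa. Nppa rose in WT hearts (log2 fold change 3.16, limma adjusted p = 0.0026) and had a log2 fold change of 1.19 in KI hearts (limma adjusted p = 0.12). The potassium channel gene Kcnj3 of this list fell in both genotypes (log2 fold change -0.96, limma adjusted p = 0.031 in WT and log2 fold change -2.04, limma adjusted p = 0.00021 in KI hearts). Nr2f1 fell in KI hearts (log2 fold change -0.56, limma adjusted p = 0.011). In the leukocyte list Adgre1, Cd68 and S100a9 rose in WT hearts (log2 fold changes 0.83, 1.22 and 1.58, limma adjusted p = 0.0409, 0.00601 and 0.0137). In KI hearts S100a8 and S100a9 rose (log2 fold changes 1.91 and 2.77, limma adjusted p = 0.00254 and 0.000228), Csf1r fell (log2 fold change -0.53, limma adjusted p = 0.042) and Lum of the fibroblast list fell (log2 fold change -1.14, limma adjusted p = 0.048). The smooth muscle list (6 of 6) ranged from 84.1 to 199 RPKM and the endothelial list (5 of 5) from 182 to 270.2 RPKM over all hearts. Of the smooth muscle genes Cnn1 rose in WT hearts (log2 fold change 1.16, limma adjusted p = 0.009), while Smtn fell in both genotypes (log2 fold change -0.87, limma adjusted p = 0.037 in WT and log2 fold change -1.17, limma adjusted p = 0.0045 in KI hearts). No endothelial gene passed the test in these comparisons. Of 12 skeletal muscle genes 2 were in the table, Atp2a1 at no more than 0.429 RPKM and Mybpc2 at no more than 14.8 RPKM. A list of glucocorticoid-responsive genes (8 of 8) summed to 730.3 to 1556 RPKM in KI TAC hearts and to 146 to 696 RPKM in the others, and clock genes (13 of 13) to 244 to 351, 148 to 199.6, 171 to 308 and 151 to 195 RPKM. In the former list Pdk4 was at 549, 1033 and 339 RPKM in KI TAC mice 5, 6 and 7. It was at 344 RPKM in WT TAC mouse 9, the heart with the highest sum among the others. Klf9 of that list had a log2 fold change of -0.91 in KI hearts (limma adjusted p = 0.099). The part of these shifts in the members' values was not tested.

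Markers also differed between the TAC groups, where Tcap, Tnni3 and Myl2 were called higher in KI hearts. Of the cardiomyocyte genes Ckm, Mb and Ckmt2 were higher in KI TAC hearts (log2 fold changes 1.14, 0.84 and 0.79, limma adjusted p = 0.0141, 0.0498 and 0.0417), and Slc8a1 was lower (log2 fold change -0.95, limma adjusted p = 0.027). Of the atrial list, 3 genes were lower in KI TAC hearts. Nppa, which the study counts among hypertrophy marker genes, differed the most (log2 fold change -2.12, limma adjusted p = 0.025). Kcnj3 and Nr2f1 followed (log2 fold changes -0.996 and -0.55, limma adjusted p = 0.0302 and 0.0253). The macrophage genes Adgre1 and Csf1r (log2 fold changes -1.15 and -0.91, limma adjusted p = 0.0135 and 0.00913) and the smooth muscle gene Cnn1 (log2 fold change -0.98, limma adjusted p = 0.026) were lower as well. No fibroblast or endothelial gene passed the test. Of the 8 glucocorticoid-responsive genes 6 were higher and none lower, led by Mt2 (log2 fold change 3.16, limma adjusted p = 0.0064), and of the 13 clock genes Per1 was higher (log2 fold change 1.41, limma adjusted p = 0.021). The part of these differences in the members' calls was not tested.

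Among the sham hearts, mouse 1 of both genotypes stood apart in some clock and glucocorticoid-responsive genes, which were picked after their values were seen. Per2 was at 6.47 and 3.91 RPKM in WT and KI sham mouse 1 and at 17.9 to 26.3 RPKM in the other 4 sham hearts. Arntl was at 0.765 and 2.04 against 0.132 to 0.337 RPKM, Zbtb16 at 5.44 and 3.48 against 28.9 to 41.6 RPKM and Fkbp5 at 1.29 and 1.07 against 4.42 to 5.42 RPKM. Over all genes the deviations of these hearts from their group means did not go together (r = -0.225). The part of this in the members' values was not tested.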

How the data were processed

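Poly(A) RNA of 12 hearts was sequenced as single reads. According to the submitters' processing notes and the methods, the authors trimmed reads with Trimmomatic 0.39, mapped them with HISAT2 2.2.1 to GRCm38 and counted them with HTSeq 0.6.1, and used edgeR 3.18.1 and limma 3.32.10 in R 4.1.1. The deposited values are RPKM, as read from the values: the step from counts and the filter that left 13552 genes are not given in the sources used here. Exon lengths came from GENCODE M21 (13546 identifiers matched). Low RPKM values times exon length were whole multiples of 1 read (within 0.02 reads) for 97.6% to 98.1% of them, which gave the depth of 23650191 to 32455166 reads; intervals for counting error are not printed. limma-voom on the recovered reads was an alternative.

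The deposited values were put on the log2(RPKM + 1) scale, which understates fold changes of low genes, and genes at 1 RPKM in 3 mice were kept (11240). A linear model of 4 groups over all 12 mice was fitted with limma 3.58.1 (empirical Bayes, with an intensity trend; R 4.3.3), with a Benjamini-Hochberg adjusted p of 0.05 over all genes; it was tested on simulated data. Shares were compared by exact permutation tests. Groups came from the labels for genotype and treatment. The labels do not say that the hearts of a group come from separate cohorts, and p-values measure the spread between these hearts. Python 3.11.15, numpy 2.4.6, pandas 2.3.3, scipy 1.17.1 and matplotlib 3.10.9 were used.

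Named in full were, per comparison, the 5 members with the largest log2 change among those called without overlap, and in short the extremes and the most abundant member of each class. The other called members, Lmod2, Des, Tpm3, Tpm4 and Obsl1 among them, were given values after these were seen, so that every call is accounted for. The members and lists were chosen with earlier results of these data known. Marker lists were of cardiomyocyte, atrial, skeletal and smooth muscle, fibroblast, endothelial and leukocyte genes, with glucocorticoid-responsive and clock genes. Mouse numbers were not used to pair the sham groups (correlations of deviations -0.225, -0.302 and 0.44 for numbers 1, 2 and 3). With 3 hearts a group these values cannot tell whether hearts of the same number were handled together. The shares of Myl7 and Myl4 among the light chains were planned and not run, since those genes had no row.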

Additional observations from a re-analysis of the deposited data

How the results depend on the processing

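Besides the 12 fits that left out 1 mouse, the members' calls were repeated with a pseudocount of 0.1, no filter on low values, quantile normalization, median-ratio scaling, scaling to reads on nuclear genes, limma-voom on recovered reads and a fit of only the 2 groups compared. After the data were seen, fits without the 2 sham libraries that stood apart and with the trend over exon length removed were added. No call of a named member reversed its direction in any of them. For TAC against sham, counts of called members moved by over 1.5 times in 1 such setting: 5 lower members in WT hearts with the length trend removed. For KI TAC against WT TAC the higher members numbered 3 in the fit of 2 groups, 8 with median-ratio scaling and 2 with quantile normalization, and the lower members 0 in the fit of 2 groups, with quantile normalization and with the length trend removed; the cause was not tested. Leaving out 1 mouse gave 4 to 7 higher and 1 to 5 lower members in WT hearts after TAC, 5 to 7 and 2 to 4 in KI hearts, 0 to 6 and 0 to 1 between the TAC groups, and 0 to 0 between the sham groups and in the interaction. The share of reads on members differed by 0.244 to 0.598 percentage points in WT, 1.496 to 2.85 in KI and 1.14 to 2.50 between the TAC groups, and without Flnc by -0.177, 0.338 and 0.631. The tropomyosin share differed by 2.86 to 4.50, 0.446 to 2.68 and -2.80 to -0.556 percentage points in these comparisons, and the Mylk4 share by -11.5 to -6.76, -4.46 to 2.52 and 3.61 to 10.6. The 2 sham groups with the mouse number as a replicate block gave 0 higher and 0 lower members. The labels do not say whether the numbers pair the hearts, and the TAC groups share too few numbers for a paired fit. Of the called values of single members named in full, 46 of 192 fits that left out 1 mouse and 15 of 144 others lost the call, all with the direction kept. The tested member with the fewest reads in any heart held 122 of them, and 3 hearts a group limit the precision of every comparison.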

Other observations

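The ratio of Ttn to Tcap, the giant protein and the small protein that joins its ends in the Z-disc, separated the TAC groups as plain values. In RPKM the ratio was 0.214, 0.278 and 0.341 in WT TAC mice 7, 9 and 10 and 0.0827, 0.0597 and 0.0484 in KI TAC mice 5, 6 and 7. It was 0.038, 0.13 and 0.141 in WT sham mice 1, 2 and 3 and 0.303, 0.0279 and 0.0791 in KI sham mice 1, 2 and 3, where the lowest values are those of WT sham mouse 1 and KI sham mouse 2. The pair was chosen after the values were seen, joins the longest and the shortest member, and is given without a test. The ratio of Ttn to Actn2 was 0.123, 0.134 and 0.143 in the WT TAC and 0.0953, 0.0704 and 0.0537 in the KI TAC hearts, again without overlap, and 0.053, 0.149 and 0.157 and 0.18, 0.0606 and 0.12 in the WT and KI sham hearts.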
